A study of Mus musculus with 20 samples.

Results

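Toll-like receptors recognise microbial products and molecules released from damaged cells, and 10 genes that encode 6 of these receptors and proteins that act directly beside them were examined. The members, chosen by name for their role, were Tlr1, Tlr2, Tlr3, Tlr4, Tlr6, Tlr7, Cd14, Ly96, Myd88 and Ticam1, found by an exact match of the gene symbol. All 10 were among the 54304 genes of the deposited table, each in 1 row, and all 10 were among the 17435 genes tested. They were compared between sorted stromal cells of mouse gonadal white fat by RNA sequencing of polyadenylated RNA.

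TLR2, TLR1, TLR6 and TLR4 sit at the cell surface, where TLR2 pairs with TLR1 or TLR6 to bind lipopeptides and TLR4 binds lipopolysaccharide with the help of CD14 and of MD-2, the product of Ly96. TLR3 and TLR7 sit in endosomes and bind double-stranded and single-stranded RNA. MYD88 is the adaptor of all these receptors except TLR3 and leads to NF-κB target genes, whereas TRIF, the product of Ticam1, serves TLR3 and internalised TLR4 and also leads to interferon genes. In fat, macrophages carry many of these receptors, and stromal progenitors and adipocytes carry some of them.

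Fibro-inflammatory progenitors (FIPs) were sorted as CD45-CD31-PDGFRb+ cells with LY6C on their surface, and adipogenic precursor cells (APCs) as CD45-CD31-PDGFRb+ cells lacking LY6C and CD9. They came from control mice and from Mural-Zfp423 transgenic mice, whose name joins the zinc-finger transcription factor Zfp423 to mural cells, PDGFRβ-bearing cells that wrap small vessels. All mice were male, 8 weeks old in the labels, housed at 30 °C and fed fat-rich chow (60% of the energy as fat) for 1 month, so no group shows these cells on a lean diet. The labels name no strain, transgene allele, driver or inducing agent. The series title names macrophage accrual in obese fat as the study's subject. Each of the 4 groups had 5 libraries, and each library pooled RNA of 2 mice. Since 10 mice per genotype supplied all 10 pools, some FIP and APC libraries come from the same animals; the labels do not say which, and the libraries were fitted as independent.

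The values are log2 CPM, the base-2 logarithm of counts scaled to library size, with a CPM of 1 or less listed as 0. Libraries held between 6.6 and 8.51 megareads, as read from the step between low values. All 8 FIP markers were higher and all 7 APC markers lower in FIPs than in APCs of control mice. The same counts were found in mice labelled transgenic. Of all genes tested, 47.5% and 41.7% differed in these comparisons. Ly6c1, Ly6c2 and Cd9 are among the FIP markers and encode proteins of the gates, so their direction was set by the sort. Zfp423 itself was not higher in cells labelled transgenic: its log2 difference was 0.06 in FIPs (95% interval from -0.16 to 0.27) and -0.26 in APCs (from -0.48 to -0.05), with adjusted p = 0.933 and 0.108 in limma. A library is therefore called labelled transgenic throughout. Some libraries stood apart from their groups in the mean over a list, and examples follow. Replicate 5 of the control FIPs had 1.08 log2 CPM over lymphocyte genes against 0.15 to 0.27 in the rest of its group. Over the interferon output genes, replicate 1 of the control FIPs had 4.82 against 5.26 to 5.38. Replicate 5 of the FIPs labelled transgenic had a mean log2 CPM of 5.19 over the interferon output genes against 4.12 to 4.39 in the rest of its group. Replicate 1 of the APCs labelled transgenic had 6.3 over erythroid genes and 3.72 over mesothelial genes, against 5.0 to 5.45 and 2.78 to 3.06 in the rest of its group. Both sorts excluded CD45, yet its gene Ptprc was measured at a mean of 3.66 to 4.69 log2 CPM in the 4 groups, and 24 of 24 macrophage markers were measured.

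Per kilobase of exon, Myd88 led the members in all 4 groups. Its level in control FIPs was 5.5 ± 0.07 log2 CPM per kilobase (mean ± SD, n = 5 libraries), and Tlr2 followed at 4.0 ± 0.13, Cd14 at 3.94 ± 0.35 and Tlr4 at 3.39 ± 0.15. The libraries of Tlr2 and Cd14 overlapped, as did those of Cd14 and Tlr4, so their order is not fixed, while Tlr4 and Tlr3 (3.06 ± 0.05) did not overlap. Below them Tlr3, Ticam1 (3.01 ± 0.18) and Ly96 (2.88 ± 0.12) overlapped in turn, and Tlr1 (-0.32 ± 0.6), Tlr6 (-0.38 ± 0.11) and Tlr7 (-0.39 ± 0.4) formed a far lower group whose neighbours also overlapped.

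In control APCs Tlr2 stood further down. Myd88 stood at 5.87 ± 0.13 log2 CPM per kilobase, Cd14 at 4.09 ± 0.38, Tlr4 at 3.49 ± 0.13 and Ticam1 at 3.22 ± 0.1, with no overlap between neighbours. Tlr2 came after these at 2.92 ± 0.32 and overlapped Ticam1 above it and Ly96 (2.83 ± 0.17) below it, which in turn overlapped Tlr3 (2.73 ± 0.19). Tlr7, Tlr6 and Tlr1 again lay lowest, at 0.0 ± 0.3, -0.22 ± 0.15 and -0.36 ± 0.31. In the groups labelled transgenic, Tlr2 was likewise second in FIPs (3.92 ± 0.12) but below Ticam1 in APCs (2.81 ± 0.12).

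**Figure D1:**
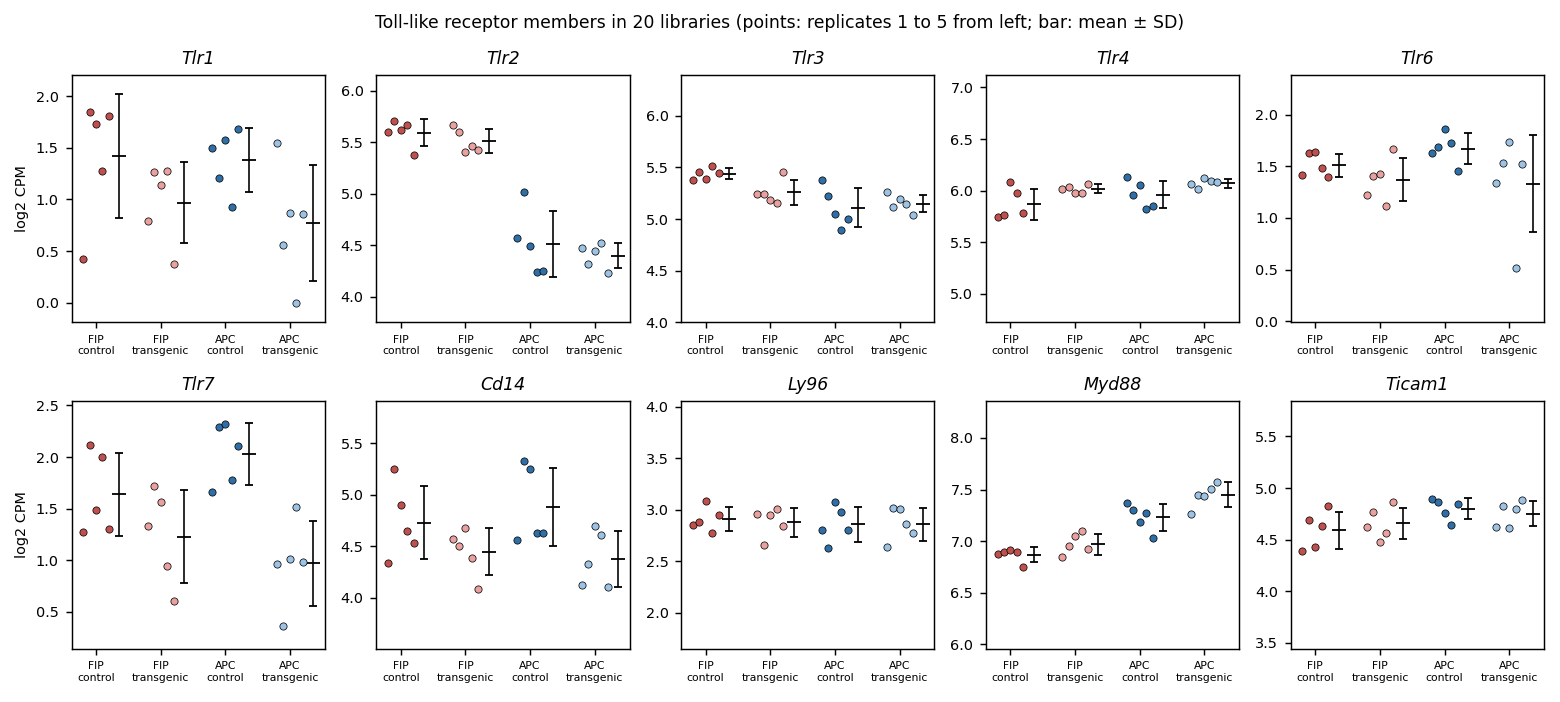
Level of each of the 10 members in log2 CPM (vertical axis, a different range in each panel but never under 2.4 units) in the 20 libraries, by cell type and genotype. Points are libraries, replicates 1 to 5 from left to right, and bars are the mean ± SD of a group; Tlr2 is the member whose FIP and APC libraries are farthest apart.

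Tlr2, the receptor for lipopeptides, was the member that differed most between the cell types. In control mice its level was 5.6, 5.7, 5.62, 5.67 and 5.38 log2 CPM in FIPs and 4.57, 5.02, 4.49, 4.24 and 4.25 in APCs. The FIPs labelled transgenic had 5.67, 5.6, 5.4, 5.46 and 5.42 and the matching APCs 4.47, 4.32, 4.45, 4.52 and 4.23. Every FIP library lay above every APC library, and within a cell type the genotypes overlapped.

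The difference for Tlr2 was 1.08 on the log2 scale in control mice (SE 0.11, 95% interval from 0.85 to 1.31), a fold of 2.11, with adjusted p = 1.13e-07 in limma. In mice labelled transgenic it was 1.11 (SE 0.11, from 0.88 to 1.35), a fold of 2.16, with adjusted p = 6.46e-08. Genotype differences of Tlr2 were -0.08 in FIPs (from -0.32 to 0.15) and -0.12 in APCs (from -0.35 to 0.12) and did not pass the test. Over all 33 alternatives the FIP-to-APC difference of Tlr2 passed in both genotypes, between 0.97 and 1.21 in control mice and between 1.06 and 1.14 in mice labelled transgenic.

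Markers of other cell types moved in the same comparison. In control FIPs 11 of 12 endothelial, 9 of 10 mesothelial, 7 of 24 macrophage and 6 of 6 tested erythroid genes were lower than in control APCs. Of these lists 1 endothelial gene was the only one that was higher. Of all genes 47.5% passed in this comparison, a larger share than 7 of 24. Mean levels in control FIPs and APCs ranged from 5.13 to 5.61 and from 5.64 to 6.12 log2 CPM for endothelial, from 2.59 to 3.12 and from 3.32 to 4.31 for mesothelial, and from 5.11 to 5.22 and from 5.87 to 6.8 for erythroid genes. Among cells labelled transgenic the counts lower in FIPs were 0 endothelial, 1 mesothelial, 2 macrophage and 3 erythroid, where 41.7% of all genes passed. The 2 macrophage genes were Mertk (-1.28) and Cd68 (-0.57). Mertk was also among the 7 in control mice (-1.29), but differed by only 0.12 between genotypes in APCs and did not pass there. Tlr2 and Myd88 passed between FIPs and APCs with the macrophage or the erythroid score as a covariate, and the part of endothelial and mesothelial RNA was not tested.

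Tlr2 lies on chromosome 3 from 83836272 to 83841767 (GRCm38, minus strand) in 3 exon blocks, with no other annotated gene across it. The bases just upstream of its first annotated exon are shown because this is the member with the clearest difference. They run from base -250 to -160 before the RefSeq start at chr3:83841768-83841858 (GRCm38.p6, minus strand). Capitals mark overlapping matches of the kappa-B consensus, bound by NF-κB. Each was found on both strands, as was every kappa-B match of the members.

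Tlr2 upstream: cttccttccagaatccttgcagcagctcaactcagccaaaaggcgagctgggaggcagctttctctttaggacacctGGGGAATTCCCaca

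The kappa-B matches span bases -173 to -163, and 9.55% of 32817 mouse promoter windows of 250 bases hold such a match on either strand. The motif is a match of letters in the reference and was not measured here.

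Tlr1 and Tlr6, the partners of TLR2, were close to the limit of the table in every group. Tlr1 ranged from 0.42 to 1.85 log2 CPM in control FIPs and from 0.93 to 1.68 in control APCs. In cells labelled transgenic it ranged from 0.37 to 1.28 in FIPs and from 0.0 to 1.55 in APCs, where replicate 4 was listed at 0. For Tlr1 this is an estimated 0 to 29 reads in a library. Tlr6 ranged from 1.4 to 1.64 and from 1.46 to 1.86 in control FIPs and APCs, and from 1.12 to 1.67 and from 0.52 to 1.74 in those labelled transgenic. All groups overlapped for both genes.

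Neither partner of TLR2 passed the test between cell types. Tlr1 differed by 0.04 between FIPs and APCs of control mice (from -0.55 to 0.62) and Tlr6 by -0.16 (from -0.52 to 0.2), intervals that do not reach the value of Tlr2. Between genotypes in APCs, Tlr1 differed by -0.61 (from -1.2 to -0.03; adjusted p = 0.176 in limma) and Tlr6 by -0.34 (from -0.71 to 0.02; adjusted p = 0.223), and neither passed the test. Without replicate 1 of the APCs labelled transgenic, Tlr1 differed by -0.81 with adjusted p = 0.0499.

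Tlr1 and Tlr6 are neighbours on chromosome 5, at 64924679 to 64933563 and 64952031 to 64960097 (minus strand, GRCm38), and parts of their coding sequence are identical. Of all 50-base words in the transcripts of Tlr1, 15.4% also occur in another gene, mostly Tlr6, and for Tlr6 the share is 12.3%, so reads from these stretches cannot be assigned by sequence and both levels are uncertain. The longest identical run has 229 bases and is shown because short reads inside it fit both genes. It lies at chr5:64925537-64925765 in Tlr1 and at chr5:64953828-64954056 in Tlr6, both on the minus strand and inside the coding exon.

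Tlr1 and Tlr6 shared run: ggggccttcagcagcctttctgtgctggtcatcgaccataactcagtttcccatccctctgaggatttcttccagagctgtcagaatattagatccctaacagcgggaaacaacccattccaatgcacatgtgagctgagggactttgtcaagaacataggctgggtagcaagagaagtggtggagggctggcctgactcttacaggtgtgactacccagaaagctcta

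Tlr4, the lipopolysaccharide receptor, was among the steadiest members. All 20 libraries lay between 5.74 and 6.13 log2 CPM, a range of 0.39. Means were 5.87 ± 0.15 in control FIPs, 6.02 ± 0.04 in FIPs labelled transgenic, 5.96 ± 0.13 in control APCs and 6.07 ± 0.04 in APCs labelled transgenic (SD, n = 5 each), and all pairs of groups compared overlapped.

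Differences of Tlr4 were small with narrow intervals. FIPs differed from APCs by -0.09 in control mice (from -0.23 to 0.04) and by -0.06 in mice labelled transgenic (from -0.19 to 0.07). Labelled transgenic differed from control by 0.15 in FIPs (from 0.02 to 0.28; adjusted p = 0.405 in limma) and by 0.11 in APCs (from -0.02 to 0.24; adjusted p = 0.279). None passed the test, and no interval reached 0.33 in either direction, the difference of Tlr3 between control FIPs and APCs. Without replicate 3 of the control FIPs, the FIP-to-APC difference of Tlr4 in control mice was -0.15 with adjusted p = 0.0486. The gene spans 66827584 to 66930284 on chromosome 4 (plus strand, GRCm38).

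Ly96 encodes MD-2, the subunit of the TLR4 receptor that holds the lipid. It ranged from 2.63 to 3.08 log2 CPM over the 20 libraries, with group means of 2.91, 2.88, 2.86 and 2.86 in control FIPs, FIPs labelled transgenic, control APCs and APCs labelled transgenic. Its 4 differences lay between -0.02 and 0.05, none passed the test, and all 4 intervals lay within -0.25 to 0.28. Levels were an estimated 45 to 67 reads per library. Ly96 has 6 exon blocks on chromosome 1 between 16688051 and 16709611 (plus strand, GRCm38).

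Cd14, the lipopolysaccharide-binding co-receptor best known on monocytes and macrophages, varied more within groups than Tlr4 or Ly96. Its levels were 4.34, 5.25, 4.9, 4.65 and 4.53 log2 CPM in control FIPs and 4.57, 4.5, 4.68, 4.39 and 4.09 in FIPs labelled transgenic. In APCs they were 4.56, 5.33, 5.25, 4.63 and 4.63 in controls and 4.13, 4.33, 4.7, 4.61 and 4.11 in mice labelled transgenic. Replicate 2 of both control groups and replicate 3 of the control APCs were highest, and the groups overlapped in each comparison. It is encoded by 1 exon on chromosome 18.

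The genotype difference of Cd14 in APCs was -0.5 (SE 0.18, from -0.88 to -0.13; adjusted p = 0.0814 in limma), and in FIPs it was -0.29 (from -0.66 to 0.09; adjusted p = 0.629). Neither passed the test, and FIPs differed from APCs by -0.15 in control mice and 0.07 in mice labelled transgenic. Without replicate 1 of the control APCs the difference in APCs was -0.58 with adjusted p = 0.041. With the macrophage marker score as a covariate it was -0.02 (adjusted p = 0.986), and the part of macrophages in it was otherwise not tested.

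Tlr3, the endosomal receptor for double-stranded RNA, was higher in FIPs than in APCs of control mice. Control FIPs had 5.38, 5.46, 5.39, 5.51 and 5.45 log2 CPM and control APCs 5.38, 5.22, 5.05, 4.89 and 5.0. FIPs labelled transgenic had 5.24, 5.24, 5.18, 5.16 and 5.46, and APCs labelled transgenic 5.26, 5.12, 5.19, 5.15 and 5.04. Control FIPs and control APCs met at a single shared value of 5.38, and replicate 5 stood above the rest of the FIPs labelled transgenic.

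The FIP-to-APC difference of Tlr3 was 0.33 in control mice (SE 0.08, from 0.17 to 0.49, a fold of 1.26), with adjusted p = 0.00131 in limma. The corresponding difference in mice labelled transgenic was 0.1 (from -0.05 to 0.26; adjusted p = 0.292) and did not pass. The difference between these differences, the genotype by cell type interaction, was -0.23 with adjusted p = 0.358 and did not pass. Erythroid genes were lower in control FIPs, as given for Tlr2, and with their score as a covariate the control difference of Tlr3 was 0.21 with adjusted p = 0.254.

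Between genotypes, Tlr3 differed by -0.18 in FIPs (from -0.34 to -0.02; adjusted p = 0.385 in limma), and by -0.23 (adjusted p = 0.239) without replicate 5 of the FIPs labelled transgenic. In APCs it differed by 0.04 (from -0.11 to 0.2). Tlr3 lies on chromosome 8 from 45395665 to 45411080 (minus strand, GRCm38) and shares 381 exon bases with the antisense gene Gm45542, which was listed at 0 in all libraries.

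Tlr7, the endosomal receptor for single-stranded RNA, was lower in APCs labelled transgenic than in control APCs. Control APCs had 1.66, 2.29, 2.32, 1.78 and 2.11 log2 CPM, and APCs labelled transgenic 0.96, 0.36, 1.01, 1.52 and 0.98. Control FIPs had 1.27, 2.12, 1.49, 2.0 and 1.3, and FIPs labelled transgenic 1.33, 1.72, 1.56, 0.94 and 0.61. The APC groups did not overlap, with a gap of 0.14, whereas the FIP groups did.

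The genotype difference of Tlr7 in APCs was -1.07 (SE 0.24, from -1.56 to -0.57), a fold of 0.48, with adjusted p = 0.0178 in limma. In FIPs it was -0.4 (from -0.9 to 0.09; adjusted p = 0.601), and the interaction, the FIP difference minus the APC difference, was 0.66 and did not pass (adjusted p = 0.384). Values in APCs rest on an estimated 24 to 40 reads per control library and 10 to 24 per library labelled transgenic. The call was lost without replicate 5 of the control APCs (adjusted p = 0.0523) and without replicate 2 of the APCs labelled transgenic (0.0539), with differences of between -1.2 and -0.91 over all 20 fits that left out a library.

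Macrophage markers fell in the same comparison: 15 of 24 were lower and 0 higher in APCs labelled transgenic, where 8.01% of all genes passed. Their median difference was -0.82 against -0.03 for all genes tested. Their mean level ranged from 3.6 to 4.28 log2 CPM in control APCs and from 2.88 to 3.66 in APCs labelled transgenic. Among FIPs the range was 3.11 to 3.92 with the control label and 2.61 to 3.51 with the transgenic one. Adgre1, a surface receptor of macrophages, differed by -1.0, Cd163, a haemoglobin scavenger receptor, by -1.01, and Ms4a7, a membrane protein of macrophages, by -1.02. In bulk RNA, fewer macrophages in a sort and less RNA per macrophage cannot be told apart. The count was 20 without replicate 1 of the APCs labelled transgenic and 0 without replicate 5 of either APC group, and 6 of 6 tested erythroid genes were lower as well, with a mean level of 5.87 to 6.8 log2 CPM in control APCs and 5.0 to 6.3 in APCs labelled transgenic. Of the 24 markers, 20 were above 0 in every library, and 4 (Fcgr1, Ms4a7, Aif1 and Cx3cr1, named after their values were seen) were listed at 0 in some.

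With the macrophage score as a covariate the difference of Tlr7 was -0.48 (adjusted p = 0.58 in limma), and with the erythroid score it was -0.74 (adjusted p = 0.653). The part of macrophages in the Tlr7 result was otherwise not tested. The gene lies on the X chromosome from 167304929 to 167330558 (minus strand, GRCm38) in 6 exon blocks, and no other annotated gene crosses it.

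**Figure D2:**
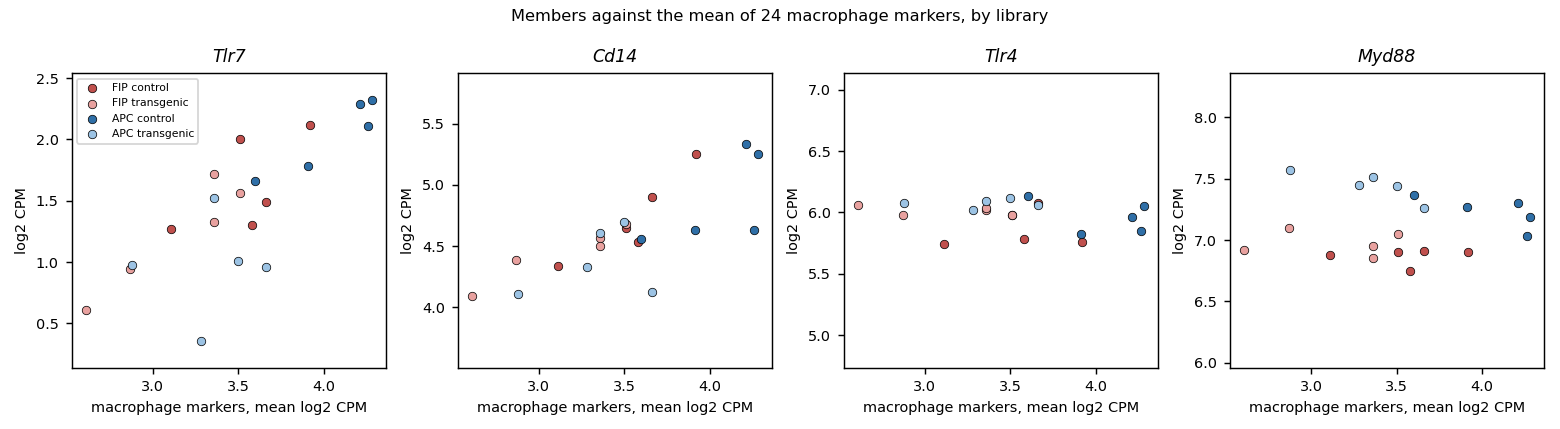
Levels of Tlr7, Cd14, Tlr4 and Myd88 in log2 CPM (vertical axes) against the mean log2 CPM of 24 macrophage markers (horizontal axes), 1 point per library. Tlr7 and Cd14 are higher in libraries with more marker RNA, up to 4.28 in control APCs, whereas Tlr4 stays between 5.74 and 6.13.

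Over the 20 libraries, Pearson's r with the macrophage score after the group means were subtracted was 0.69 for Cd14, 0.66 for Tlr7 and 0.52 for Tlr1. It was 0.26 for Tlr2, 0.02 for Ly96, -0.02 for Tlr6, -0.08 for Tlr4, -0.17 for Tlr3, -0.21 for Ticam1 and -0.42 for Myd88. These values describe libraries that may share mice and the same scaling, and no test was made of them.

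Myd88, the adaptor, was lower in FIPs than in APCs. Control FIPs had 6.88, 6.9, 6.91, 6.9 and 6.75 log2 CPM and control APCs 7.37, 7.3, 7.19, 7.27 and 7.03. FIPs labelled transgenic had 6.85, 6.95, 7.05, 7.1 and 6.92, and APCs labelled transgenic 7.26, 7.45, 7.44, 7.51 and 7.57. Within each genotype all APC libraries lay above all FIP libraries, the reverse of Tlr2.

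The FIP-to-APC difference of Myd88 was -0.36 in control mice (SE 0.06, from -0.5 to -0.23, a fold of 0.78), with adjusted p = 8.42e-05 in limma. With the transgenic label it was -0.47 (SE 0.06, from -0.6 to -0.34, a fold of 0.72), with adjusted p = 3.23e-06. The interaction was -0.11 (adjusted p = 0.602). Both differences passed in all 33 alternatives, between -0.59 and -0.3 in control mice and between -0.56 and -0.44 in mice labelled transgenic.

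Between genotypes, Myd88 was higher in APCs labelled transgenic by 0.21 (SE 0.06, from 0.08 to 0.35, a fold of 1.16), with adjusted p = 0.0435 in limma, and the groups overlapped. In FIPs the difference was 0.11 (from -0.03 to 0.24; adjusted p = 0.61). The call in APCs is marginal: it was lost in 12 of the 20 fits that left out a library, with adjusted p between 0.00712 and 0.14, and in 8 of the 13 other alternatives. With the erythroid score as a covariate the difference was 0.04 (adjusted p = 0.963), and with the macrophage score it was 0.11 (adjusted p = 0.69). FIP markers moved in the same comparison: 6 of 8 were lower in APCs labelled transgenic, where 8.01% of all genes passed. Among the 6 were Pi16 (-0.74), Cd9 (-0.65), Ly6c1 and Ly6c2 (both -0.53), and the median of the 8 markers was -0.47. Their mean level was 6.15 to 6.46 log2 CPM in control APCs and 5.87 to 6.06 in APCs labelled transgenic, and their part in the Myd88 result was not tested. Of the 8 markers 0 passed in the fit of the compared groups alone or with the erythroid score as a covariate, and 1 with the macrophage score.

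Myd88 lies on chromosome 9 from 119335934 to 119341411 (minus strand, GRCm38), where 290 of its exon bases are also exon of Acaa1a, a peroxisomal thiolase gene on the opposite strand. No source used here states the strand setting of the counting, so reads of the shared bases may count for either gene or neither. Acaa1a had means of 6.56, 6.54, 6.68 and 6.57 log2 CPM in control FIPs, FIPs labelled transgenic, control APCs and APCs labelled transgenic, and differed between control FIPs and APCs by -0.12 (adjusted p = 0.0361 in limma). Its genotype difference in APCs was -0.1, opposite in sign to that of Myd88. The upstream bases of Myd88 are shown for comparison with Tlr2, since the pair moved in opposite directions. The bases shown are unlike: those of Tlr2 lie outside its annotated gene. Those of Myd88 lie just before the first exon of an annotated transcript and within an intron of another that starts further upstream. The rest of the window searched for Tlr2, 159 bases in annotated exons, is not shown. It holds GC boxes at bases -69 to -64 and -48 to -43. The bases of Myd88 run from base -250 to -24 before the RefSeq start at chr9:119340042-119340268 (GRCm38.p6, minus strand), and capitals mark, from left to right, TATAAA on both strands, overlapping, a GC box (GGGCGG) and an interferon-stimulated response core (GAAANNGAA).

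Myd88 upstream: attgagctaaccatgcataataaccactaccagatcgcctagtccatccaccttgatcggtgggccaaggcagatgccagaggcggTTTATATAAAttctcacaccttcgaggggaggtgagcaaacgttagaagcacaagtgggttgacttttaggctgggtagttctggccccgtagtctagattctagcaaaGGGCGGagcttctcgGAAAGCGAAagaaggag

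These letters are common: the interferon-stimulated core occurs on either strand in 7.12%, TATAAA in 12.4% and GGGCGG in 32.7% of the same 32817 windows. No kappa-B match lies in the 250 bases searched before the start of Myd88, which says only that these letters are absent from this window. Nor is such a match particular to Tlr2. The windows of Tlr3 (bases -211 to -202) and of Ticam1 (bases -196 to -187) also hold one, and Ticam1 passed in no comparison. RefSeq windows matched 6 of the 10 members by symbol, with 8 windows in all.

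Ticam1, which encodes the adaptor TRIF, showed no difference that passed the test. It ranged from 4.39 to 4.83 log2 CPM in control FIPs and from 4.64 to 4.89 in control APCs, and with the transgenic label from 4.48 to 4.86 and from 4.61 to 4.88, and all groups overlapped. The FIP-to-APC difference was -0.21 in control mice (from -0.39 to -0.02; adjusted p = 0.0639 in limma) and -0.09 in mice labelled transgenic (from -0.28 to 0.1). Genotype differences were 0.06 in FIPs and -0.05 in APCs. In control mice the value is near the threshold: it passed without replicate 5 of the control FIPs (adjusted p = 0.0194) and without replicate 4 of the control APCs (0.0388), and with the erythroid score as a covariate the difference was -0.43 (adjusted p = 0.0272). Ticam1 lies on chromosome 17 from 56269319 to 56276786 (minus strand, GRCm38).

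**Figure D3:**
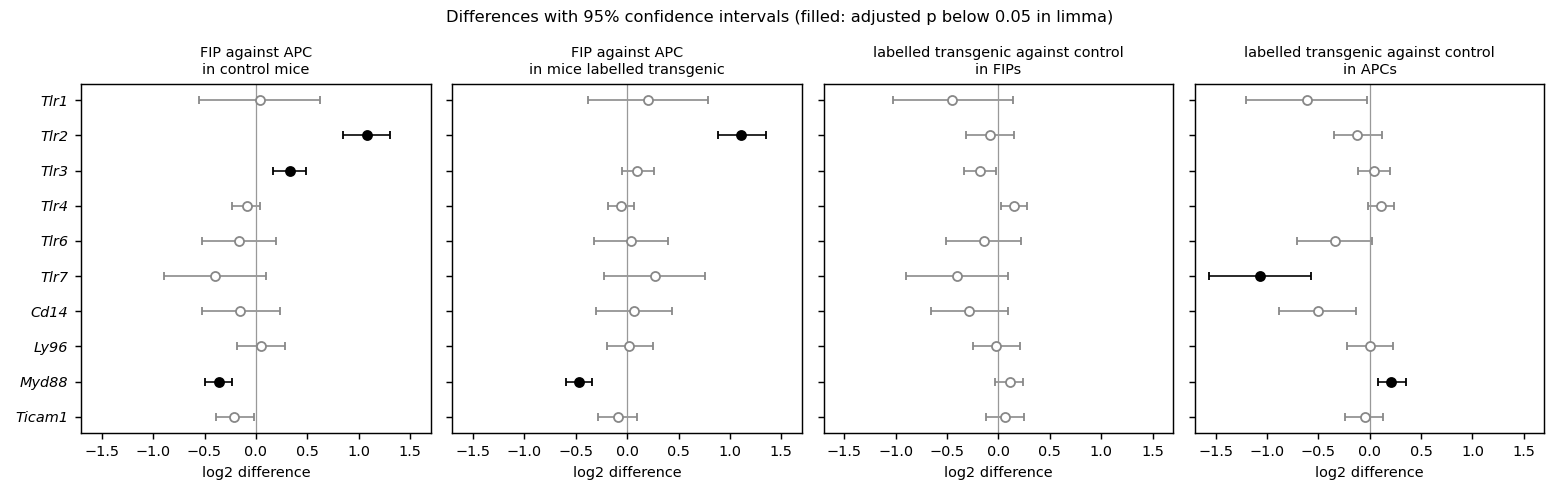
Log2 differences (horizontal axis) of the 10 members in 4 comparisons, with 95% confidence intervals from limma; filled points passed at an adjusted p below 0.05. Tlr2 and Myd88 pass in opposite directions between FIPs and APCs in both genotypes, at 1.08 and -0.36 in control mice.

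Counted together, 3 of the 10 members differed between control FIPs and APCs, Tlr2 and Tlr3 higher and Myd88 lower. The share of all genes tested that passed was 47.5%, so the members' share of 30.0% is no more than the background. With the transgenic label, 2 of 10 differed against a background of 41.7%. The medians over the members, -0.12 and 0.06, lay beside -0.06 and -0.01 for all genes tested. In each genotype 2 of the 10 had groups that did not overlap, where 31.4% and 29.0% of all genes tested did not overlap.

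Between genotypes, 0 of 10 members passed in FIPs, where 0.373% of genes did. In that comparison limma gave 2 members, Tlr3 and Tlr4, an unadjusted p under 0.05, as it did 1843 of the 17435 genes, and no alternative called a member. In APCs 2 of 10 passed, Tlr7 lower and Myd88 higher, against a background of 8.01%, and 1 of 10 did not overlap against 2.92% of all genes. The medians were -0.11 in FIPs and -0.08 in APCs, beside 0.01 and -0.03 for all genes tested. With libraries centred on their medians the split of all genes called in APCs turned from 366 higher and 1030 lower to 1376 higher and 823 lower, while the directions of Tlr7 and Myd88 were kept. For the interaction, 0 of 10 members and 0 of 17435 genes (0.0%) passed in limma, with 1 member, Tlr3, and 2388 genes at an unadjusted p under 0.05. These genotype comparisons share their libraries with the FIP-to-APC comparisons.

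The other receptors of the family numbered 6: Tlr5 was above 0 in every library, and 5 were listed at 0 in some. Tlr5, the flagellin receptor, was higher in FIPs by 1.37 in control mice (3.9 ± 0.13 against 2.53 ± 0.47 log2 CPM, n = 5 each; adjusted p = 9.14e-06 in limma) and by 1.84 in mice labelled transgenic (adjusted p = 1.43e-07). Tlr9, an endosomal DNA receptor, was lower in control FIPs, with a log2 difference of -0.83 (adjusted p = 0.016). In APCs labelled transgenic, Tlr8 and Tlr13, endosomal RNA receptors like Tlr7, differed by -1.2 (adjusted p = 0.00972) and -1.18 (adjusted p = 0.0405), at means of 0.54 and 0.44 log2 CPM against 1.75 and 1.62 in control APCs. These levels are at the limit of the table, and macrophage markers moved with them (15 of 24 lower); their part in the result was not tested beyond the covariate. Between genotypes in APCs 8.01% of all genes passed. There the count of 2 for this list was 0 with the macrophage or erythroid score as a covariate. It was also 0 with log2(CPM + 0.1) and in the fit of the compared groups alone. It was 1 in 6 of the 20 fits that left out a library. Tlr11 and Tlr12 were above 0 in too few libraries to be tested.

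Among 7 cofactors and chaperones of the receptors, Cd36, a lipid scavenger receptor that works with TLR2 and TLR6, was lower in FIPs, with log2 differences of -0.49 in control mice and -0.27 in mice labelled transgenic. Unc93b1, the chaperone that brings endosomal receptors to their place, differed by -0.2 and -0.26. Between genotypes in APCs, where 8.01% of all genes passed, only Cd36 of the 7 did, at -0.35 (adjusted p = 0.0462 in limma). That call was lost in 9 of the 13 alternatives of processing, both covariates included, and in 13 of the 20 fits that left out a library, while 3 of the 7 passed without replicate 1 of the control APCs. No cofactor passed between genotypes in FIPs, while 2 had an unadjusted p under 0.05, as did 1843 of the 17435 genes tested.

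Of 21 tested genes that carry the signal on from the receptors, 3 were higher and 7 lower in control FIPs than in APCs, a share like the 47.5% of all genes. Among cells labelled transgenic 5 were higher and 9 lower, where 41.7% of all genes passed. Irak2, a kinase of the MyD88 complex, differed by -0.79 and -0.52, and Peli2, a ubiquitin ligase acting on the IRAK kinases, by -0.44 and -0.35, the direction of Myd88. Irf7, a transcription factor of interferon genes that is itself an interferon target, differed by 0.97 and 0.42. The medians, -0.13 and -0.09, lay beside -0.06 and -0.01 for all genes tested. Ticam2, the bridging adaptor between TLR4 and TRIF, was above 0 in 2 libraries and was not tested.

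Between genotypes in APCs, 2 of these 21 were higher and 2 lower, where 8.01% of all genes passed. Ripk1, a kinase of the TRIF arm, and Tbk1, a kinase upstream of interferon genes, differed by 0.29 and 0.18. Pik3ap1, a signalling adaptor of blood cells, and Irf5, a transcription factor of macrophages, differed by -0.93 and -0.62. The count was 0 in the fit of the compared groups alone and with either score as a covariate. It fell below 4 in 18 of the 20 fits that left out a library, and was 0 in 4 of them.

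Of 14 negative regulators of the pathway, 6 were higher and 2 lower in control FIPs, where 47.5% of all genes passed, with a median of 0.07. With the erythroid score as a covariate 3 of the 14 passed. Among cells labelled transgenic 3 were higher and 1 lower, where 41.7% of all genes passed, with a median of 0.0. Irak3, a kinase homologue that blocks the MyD88 complex, was higher by 0.72 in control mice and 0.7 in mice labelled transgenic. Trim30a, an interferon-induced inhibitor, was higher by 1.17 and 0.88. Sarm1, an adaptor described as restraining TRIF, differed by -0.89 and -1.03, and Sigirr, an inhibitory receptor of the family, by -0.74 in control mice. None of the 14 passed between genotypes in FIPs or APCs, where 0.373% and 8.01% of all genes did. In each cell type 2 had an unadjusted p under 0.05 in limma. So did 1843 of the 17435 genes in FIPs and 4444 in APCs.

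NF-κB output genes did not move one way between the cell types. In control FIPs 7 of 21 were higher and 6 lower than in APCs, where 47.5% of all genes passed, with a median of 0.04. Cxcl2, a neutrophil chemokine, was higher by 1.08, Ptgs2, which makes prostaglandins, by 1.07 and Cxcl5, another neutrophil chemokine, by 0.85, while Lcn2, an iron-binding acute-phase protein, differed by -1.04. In mice labelled transgenic 4 were higher and 8 lower, where 41.7% of all genes passed.

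In APCs labelled transgenic 6 of the 21 NF-κB output genes were higher and 0 lower than in control APCs, where 8.01% of all genes passed. Their median was 0.07 against -0.03 for all genes. Birc3, an inhibitor of cell death, differed by 0.32, Icam1, an adhesion molecule, by 0.29, and the NF-κB subunits Nfkb2 and Relb by 0.28 and 0.27. The count was 1 without replicate 5 of the control APCs and without replicate 2 or 5 of the APCs labelled transgenic, and 0 with the macrophage or the erythroid score as a covariate. In FIPs 0 of 21 passed in limma, where 0.373% of all genes did, with 10 at an unadjusted p under 0.05. Over all genes this was 1843 of 17435.

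Interferon output genes, the targets of the TRIF arm and of interferon from any source, were higher in control FIPs for 11 of 15. They were lower for 1, where 47.5% of all genes passed, and their median was 1.44. Ifi44 differed by 3.63, Mx1, an interferon-induced GTPase, by 2.68, and Ifit3 and Ifit1, which restrict viral RNA, by 2.51 and 2.41. In mice labelled transgenic 8 were higher and 1 lower, where 41.7% of all genes passed, with a median of 0.68. Ifnb1, which encodes interferon beta, was listed at 0 in every library.

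Between genotypes in FIPs, 4 of the 15 were lower and 0 higher, where 0.373% of all genes passed. The 4 were Mx1 (-1.93), Ifi44 (-1.64), Ifit3 (-1.31) and Rsad2, which makes an antiviral nucleotide (-1.1). This count was 11 without replicate 5 of the FIPs labelled transgenic, the library in which Tlr3 was also highest of its group. It was 0 without replicate 4 of the control FIPs, without replicate 1 or 4 of the FIPs labelled transgenic, and in the fit of the compared groups alone. In APCs 0 of 15 passed, where 8.01% of all genes did, and none had an unadjusted p under 0.05. Over all genes 4444 of 17435 did.

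**Figure D4:**
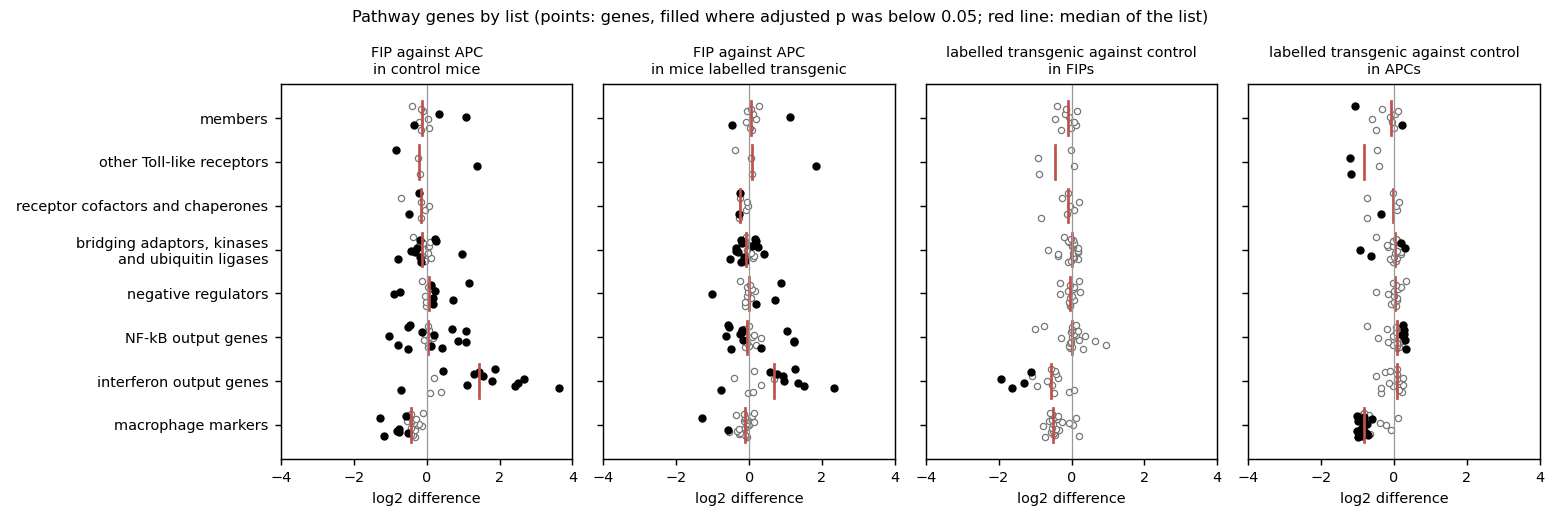
Log2 differences (horizontal axis) of the tested genes of 8 lists in 4 comparisons; points are genes, filled where the adjusted p in limma was below 0.05, and red lines are list medians. Interferon output genes lie to the right in control FIPs (median 1.44) and macrophage markers to the left in APCs labelled transgenic (median -0.82).

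Genes whose pattern was most like that of a member were sought among 11852 tested genes with a mean of at least 2 log2 CPM, by Pearson's r over the 20 libraries. With group means subtracted, Cd14 was most like Cd83 (r = 0.95), an activation marker of myeloid cells, Tnf, an inflammatory cytokine (0.93), and Plek, a platelet and leukocyte protein (0.92). Tlr7 was most like Trem2, a receptor of lipid-laden macrophages (0.8), Trp53i11 (0.78) and H2-Q5 (0.78). Tlr4 was most like Rad18 (0.84), Bbs9 (0.77) and Mapk9 (0.75), and Ly96 like Rhobtb3 (0.76), Vps29 and Tmed1 (both 0.73). Cd14 and Tlr7 are also the members with the highest r to the macrophage score.

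Without subtraction, r also carries the difference between cell types. Tlr2 was then most like Sestd1, Atp2b1 and Mfsd7a (each 0.97), Myd88 like Tm4sf1, Trib1 and Mlxip (each 0.97), and Tlr3 like Ifit1, Nxph3 and Lacc1 (each 0.87). Ifit1 is an interferon target, as background. The highest r of so many genes is large by selection, and the values only describe these libraries.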

How the data were processed

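RNA sequencing libraries of FIPs and APCs from control mice and mice labelled Mural-Zfp423 transgenic formed 4 groups of 5, each library a pool of 2 mice. The authors deposited 1 table of log2 CPM for 54304 genes and 20 libraries, given to 2 decimals, with a CPM of 1 or less listed as 0. Per the submitters' processing notes the tools were Trim Galore 0.4.1, HISAT2 2.0.1, featureCounts 1.4.6 and DESeq2 1.6.3 on GRCm38. No source used here states the annotation release or the strand setting. Gene names and coordinates came from GENCODE (GRCm38), which held 54276 of the genes, and promoter sequences from RefSeq (GRCm38.p6).

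Only 65.2 to 79.3% of low values came out as whole reads, so no count model was used. The 17435 genes above 0 in at least 5 libraries were fitted in limma 3.58.1 (R 4.3.3) with 1 mean per group, a variance trend, 16 residual degrees of freedom and Benjamini-Hochberg adjustment over all genes tested at 0.05. The procedure was tested on simulated data. A fold is 2 to the power of the log2 difference, and values listed as 0 understate changes of genes near 1 CPM. A score is the mean log2 CPM of a list. A library is the replicate, and p-values measure the spread between pools.

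The text names all 10 members, up to 4 passing genes of each other list by size of the difference, and the 3 genes most like a member; genes not tested that are named as such and Acaa1a and Gm45542 were added for their overlap or their role. Members and lists were chosen with earlier results of these data known. Alternatives were 13 changes of scaling, filter, variance, samples or covariates, and each of 20 libraries left out.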

Additional observations from a re-analysis of the deposited data

Results flagged for a closer look

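Of 40 groups of 5 libraries examined, 1 per member and group, 2 held a library whose gap to its nearest neighbour exceeded 0.71 of the group's range, the 95% critical value of Dixon's test. Chance alone flags about 1 in 20 groups. Tlr3 was 5.46 log2 CPM in replicate 5 of the FIPs labelled transgenic, against 5.16 to 5.24 in the rest of its group. This is the library whose interferon output genes averaged 5.19 log2 CPM, and its part in the Tlr3 value was not tested. Myd88 was 6.75 log2 CPM in replicate 5 of the control FIPs, against 6.88 to 6.91 in the rest of its group.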

How the results depend on the processing

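The 5 counts of members called and the members' log2 differences were recomputed under 33 alternatives, of which 20 left out a library. Of 1640 differences so obtained, 1606 stayed on their side of the threshold, 26 lost a call, 8 gained one and 0 calls changed sign; 61 of the 1606 changed sign without passing in either fit. The count of 3 members called in control mice ran from 3 to 4, that of 2 in mice labelled transgenic stayed at 2, and those between genotypes in FIPs and for the interaction stayed at 0, under all alternatives. Between genotypes in APCs the count of 2 became 1 with log2(CPM + 0.1), without the filter, with quantile normalization and with no variance trend. It became 0 with only the groups compared and with the macrophage or erythroid score as a covariate, and ran from 0 to 3 when a library was left out. The cause was not tested.

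With the replicate block, the count of members called was 4 in control mice (Ticam1 passed, adjusted p = 0.0188 in limma), 2 in mice labelled transgenic, 0 between genotypes in FIPs, 2 in APCs and 0 for the interaction. In APCs these 2 were Tlr7 and Cd14 (adjusted p = 0.0306), while Myd88 missed the threshold (adjusted p = 0.0512). Whether a replicate number marks shared mice is not known. The block also tied together same-numbered libraries of the 2 genotypes, which cannot share mice, so it does not model shared mice alone. Deviations of same-numbered FIP and APC libraries correlated at 0.036 to 0.333, with 5 of 10 above 0.1 and 5 of 10 highest with their own number, and those of the same cell type across genotypes at -0.317 to 0.148. Not all pairs exceeding 0.1, the unblocked fit was kept. That threshold cannot show that same-numbered libraries are independent.

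Counts over all genes moved more. In control mice 8288 genes passed, and 4156 with the erythroid score as a covariate. Between genotypes in FIPs 65 passed, from 9 to 125 when a library was left out and from 28 to 271 (array weights) otherwise. In APCs 1396 passed, from 181 (without replicate 5 of the controls) to 2849 (without replicate 1 of those labelled transgenic), and from 0 with only the groups compared to 2253 with array weights. For the interaction 0 passed, 176 with array weights and up to 331 when a library was left out. Depth limits Tlr1, Tlr6 and Tlr7, which rested on 0 to 40 estimated reads per library.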
